A study of Homo sapiens with 12 samples.

Results

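The question addressed here is for which genes the effect of a high-fat medium on Sk-hep1 cells was not the same after 12 and after 24 hours. Sk-hep1 is an established human liver cell line whose cell type is labelled as endothelial adenocarcinoma, from liver or ascites. Each gene was given 1 number, the medium by time interaction. It is the log2 value in high-fat medium (HFM) minus the value in growth medium (GM) at 24 hours, less the same difference at 12 hours. All 12 of the 12 arrays of the series enter it, 3 in each of 4 groups: HFM for 12 hours, GM for 12 hours, HFM for 24 hours and GM for 24 hours. HFM was based on DMEM/F12 and GM on DMEM, so the basal medium differed along with the fat. The kind and amount of fat are not stated here. A positive interaction means that HFM minus GM was higher at 24 than at 12 hours, and a negative one that it was lower. An interaction of 1 on the log2 scale is a 2-fold difference between the medium effects. Whether the 3 arrays of a group came from separate cultures is not in the labels. All p-values therefore refer to the spread among these arrays, which may be technical only, and the number of arrays limits the precision.

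Several well-known programmes respond to nutrients on this time scale. Unfolded proteins in the endoplasmic reticulum (ER) are sensed by ATF6, IRE1 and PERK, which raise chaperones and, through ATF4 and CHOP, stress and amino acid genes. The SREBP factors raise sterol and fatty acid genes when membrane sterol is low, E2F factors raise DNA replication genes as cells enter the cycle, and ERK and NF-kappaB signalling induces its own inhibitors. A medium effect on such genes can therefore appear late, fade or turn round between samples taken at different times.

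Of 19775 genes on the array, 13130 reached log2 4 on at least 3 arrays and were tested. The interaction was called, at a Benjamini-Hochberg adjusted p under 0.05 in limma, for 6931 genes (52.8% of those tested). It was higher for 2551 genes (19.4%) and lower for 4380 (33.4%), with a median over all genes tested of -0.04. At 2-fold or more, 164 genes were higher (1.25%) and 881 lower (6.71%). This split depends on how arrays are scaled. With each array centred on the median of its tested genes, the median moved to 0.16, and 5068 genes were higher and 3134 lower. The share of lower calls was then 38.2%, against 63.2% with the values as deposited. Centring moved every gene's interaction up by the same amount, so more members of any list tend to be called higher. The list counts with centred arrays below are to be read beside these totals, and do not show a stronger effect in a list. Of the called genes, 3782 had other probe sets tested, and for 2457 of these another probe set was called in the same direction and for 553 another was called in the opposite direction.

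Some arrays and controls moved with the groups. The median of the tested genes was 7.08 to 7.09 in HFM at 24 hours, against 7.24 to 7.28 in GM at 24 hours. At 12 hours it was 7.26 to 7.38 in HFM and 7.27 to 7.28 in GM, and the highest value belonged to HFM replicate 1. That array stood apart, with correlations across genes down to 0.991 to the other HFM 12-hour arrays, whereas pairs within the other groups were at 0.998. The 3' minus 5' difference of ACTB, a control of RNA integrity, was 0.69 to 0.92 in HFM and 0.86 to 0.91 in GM at 12 hours. At 24 hours it was 1.53 to 1.64 in HFM and 1.02 to 1.12 in GM. For GAPDH it was 0.15 to 0.16 in HFM and 0.13 to 0.16 in GM at 12 hours, and 0.26 to 0.30 in HFM and 0.14 to 0.18 in GM at 24 hours. The mean of the hybridisation controls was 10.38 to 10.55 in HFM and 10.60 to 10.63 in GM at 12 hours, and 10.36 to 10.37 in HFM and 10.23 to 10.42 in GM at 24 hours. The part of these values in the results was not tested. Of 16 endothelial markers 8 were tested. CDH5, VWF, KDR, TEK and TIE1 lay at log2 1.97 to 3.69 on all 12 arrays, under the level at which a gene was tested. ENG lay between 7.14 and 7.74, ROBO4 between 5.99 and 7.48 and FLI1 between 6.39 and 6.74. The other tested ones, PECAM1, FLT1, NOS3, ICAM2 and ESAM, lay between 3.69 and 5.35. Of 13 hepatocyte markers 5 were tested, TTR the highest at 5.15 to 5.74, and ALB lay at 2.26 to 2.47. Of 10 leukocyte markers 4 were tested, CD79A the highest at 5.60 to 6.46, and PTPRC lay at 1.84 to 2.46. Of 12 epithelial markers 8 were tested. CDH1 and EPCAM lay at 2.23 to 3.06, KRT8, KRT19, KRT7 and OCLN at 8.14 or more, and KRT18 at 13.28 or more.

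Called genes were sorted by the medium effects at the 2 times. An effect was new where it passed the test at 24 and not at 12 hours, and ended where it passed at 12 and not at 24 hours. It grew or shrank where it passed at both times with the same sign, and it reversed where it passed at both times with opposite signs. The effect was new for 1841 genes (26.6% of called genes), grew for 1039 (15%), shrank for 504 (7.27%), ended for 1841 (26.6%) and reversed for 1585 (22.9%). New effects were higher in HFM for 628 genes (4.78% of genes tested) and lower for 1213 (9.24%). Growing effects were higher for 356 genes (2.71%) and lower for 683 (5.2%). Shrinking effects were higher for 379 genes (2.89%) and lower for 125 (0.952%), and ended effects had been higher for 853 (6.5%) and lower for 988 (7.52%). HFM turned from higher to lower for 1207 genes (9.19%) and from lower to higher for 378 (2.88%), and 121 called genes passed at neither time (0.922%). This direction of reversal also depends on scaling, since with centred arrays 769 genes turned from higher to lower and 1186 from lower to higher. Of the 1585 genes, 1119 kept their reversed class with centred arrays. Leaving out HFM 12-hour replicate 1 raised the lower-to-higher class to 699 genes and the shrinking lower class to 502.

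**Figure D1:**
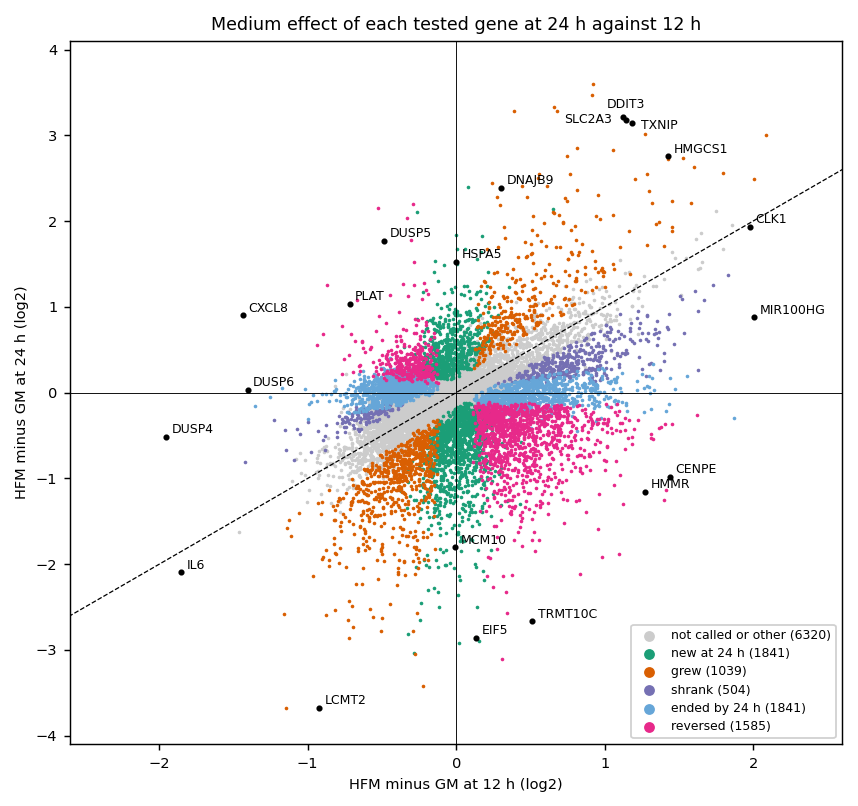
HFM minus GM at 24 hours (y axis, log2) against HFM minus GM at 12 hours (x axis, log2) for each of the 13130 genes tested, coloured by class, with labels for genes named in the text. The dashed line marks equal effects at both times; 1841 genes with a new effect lie along the vertical axis, 1841 with an ended effect along the horizontal axis, and 1585 reversed genes in the upper left and lower right.

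The same interaction can be read as the difference of 2 time courses. Between 12 and 24 hours 20.1% of all genes rose and 43.1% fell in HFM, and 29.4% rose and 40.5% fell in GM. Where effects grew, HFM changed more than GM between 12 and 24 hours for most genes, 341 of the 356 that grew higher and 669 of the 683 that grew lower. The median change was 0.86 in HFM and 0.25 in GM for the genes that grew higher, and -0.94 in HFM and -0.38 in GM for those that grew lower. Where effects shrank or ended, GM made the larger move for most genes. It did so for 372 of the 379 genes that shrank higher, for 119 of the 125 that shrank lower, for 702 of the 853 that ended higher and for 872 of the 988 that ended lower. Genes whose higher level in HFM ended had a median change of 0.00 in HFM and 0.50 in GM. Those whose lower level ended changed by a median of 0.01 in HFM and -0.43 in GM. Genes that turned from higher to lower had medians of -0.39 in HFM and 0.49 in GM, so the media moved in opposite directions.

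ER chaperones and genes of the unfolded protein response had effects that were new or grew. Of 29 members tested, 21 had a higher interaction and 1 a lower one, and 7 did not pass. The median was 0.50, beside -0.04 over all genes. At 12 hours 15 of the 29 were higher in HFM (28.9% of all genes were) and 2 were lower (33%), and at 24 hours 24 were higher (20.6%) and 0 lower (37.5%). The effect grew for 10 members and was new for 8. With centred arrays 24 were higher and 0 lower. In bulk RNA a change in the share of cells in a state and a change in RNA per cell cannot be told apart, here or below.

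DNAJB9, an ER co-chaperone that binds HSPA5, had 8.60, 8.64 and 8.67 (log2) in HFM and 8.32, 8.32 and 8.37 in GM at 12 hours. Its values at 24 hours were 11.05, 10.99 and 11.10 in HFM, against 8.65, 8.63 and 8.68 in GM. The arrays did not overlap at either time, as for 63.6% of all genes at 12 hours and 68.7% at 24 hours, and the 3 HFM arrays at 24 hours stood far above the other 9. The medium effect was 0.30 at 12 and 2.39 at 24 hours, and the interaction was 2.09 ± 0.07 (SE, n = 3 arrays per group, limma adjusted p = 4.7e-09). HERPUD1, which takes part in the removal of proteins from the ER, had 11.00, 10.89 and 10.89 in HFM and 10.68, 10.63 and 10.65 in GM at 12 hours. After 24 hours these were 12.87, 12.88 and 12.90 in HFM and 10.59, 10.64 and 10.57 in GM, without overlap at either time. The interaction of HERPUD1 was 2.01 ± 0.07 (adjusted p = 4.8e-09). HSPA5 (BiP), the main chaperone of the ER lumen, overlapped at 12 hours, with 11.86, 12.06 and 12.07 in HFM and 12.02, 12.00 and 11.97 in GM. At 24 hours it reached 13.45, 13.53 and 13.53 in HFM, against 11.95, 11.99 and 11.99 in GM. The effect on HSPA5 did not pass at 12 hours (adjusted p = 0.989), HFM was above GM on all arrays at 24 hours, and the interaction was 1.53 ± 0.08 (adjusted p = 7.6e-08). SDF2L1, an ER-resident stress-inducible protein, had an interaction of 0.95. ATF6 itself was the member with a lower interaction, -0.23, with medium effects of 0.87 at 12 and 0.64 at 24 hours. It was named after its value was seen, and its 3 other probe sets include 1 called higher.

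The letters of the ER stress response elements ERSE and ERSE-II, bound by ATF6 together with NF-Y, were sought on both strands of promoter windows from RefSeq (GRCh38.p14), which run from 250 bases before a gene's start to 50 after it. ERSE was in 0.0769% of 35116 windows of all genes and the shorter ERSE-II in 0.0541%. Either was found in 0.131% of these windows, and in 10 of the 26 windows of the ER list. They were in 7 of the 19 windows of called members, and HSP90B1, CRELD2 and ERO1B, which did not pass, held ERSE too. Of the called members, HSPA5, CALR, CANX and XBP1 held ERSE, and HYOU1, SDF2L1 and HERPUD1 held ERSE-II. HERPUD1 is shown because it had the largest interaction among the matching members. Its window lies at chr16:56931892-56932191 on the plus strand, and the capitals mark ERSE-II, which begins at position -117 from the start site. A match is a description and not evidence of binding.
HERPUD1: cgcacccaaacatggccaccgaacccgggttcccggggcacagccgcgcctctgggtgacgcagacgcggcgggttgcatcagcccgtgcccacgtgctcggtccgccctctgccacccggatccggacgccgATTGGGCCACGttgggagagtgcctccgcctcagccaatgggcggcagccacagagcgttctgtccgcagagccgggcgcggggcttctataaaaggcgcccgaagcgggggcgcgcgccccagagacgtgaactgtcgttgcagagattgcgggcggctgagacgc

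In the ATF4, CHOP and amino acid list, 13 of 32 members tested had a higher interaction, 5 a lower one, and 14 did not pass. The median was 0.23, and with centred arrays 19 were higher and 2 lower. DDIT3, which encodes CHOP, had 9.12, 8.85 and 8.78 in HFM and 7.77, 7.88 and 7.73 in GM at 12 hours. Its values were 11.51, 11.55 and 11.42 in HFM and 8.34, 8.34 and 8.16 in GM at 24 hours. HFM was higher at both times without overlap, by 1.12 and then by 3.22, and the interaction was 2.09 ± 0.13 (adjusted p = 1.4e-07). PPP1R15A (GADD34), which directs the phosphatase that ends the PERK signal, turned round. It had 6.46, 6.27 and 6.21 in HFM, under the 6.62, 6.53 and 6.68 in GM, at 12 hours, and 8.31, 8.27 and 8.33 in HFM, above the 6.18, 6.09 and 6.03 in GM, at 24 hours. The interaction was 2.50 ± 0.10 (adjusted p = 9.0e-09), and groups did not overlap at either time. GDF15, a secreted stress cytokine, overlapped at 12 hours, and its effect was new at 24 hours (1.84). Its HFM arrays at 24 hours were at 12.78, 12.75 and 12.77, against 10.93, 10.94 and 10.93 in GM. ASNS, asparagine synthetase, had an interaction of 0.62. STC2, a secreted stress glycoprotein, had 1.47, but with probe sets of the cross-hybridising types left out its interaction was -0.17 and did not pass.

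In the same windows, the letters TGATGNAA, the core of the element bound by ATF4 with C/EBP factors, were in 3.62% of all windows and in 9 of the 31 windows of the list. Among these are the windows of CHAC1, SLC7A1 and AARS1, which did not pass. The letters were in 4 of the 17 windows of called members, which are ATF3, ASNS, SLC3A2 and NARS1. NARS1, an aminoacyl-tRNA synthetase, had a lower interaction of -0.34, and the other members a higher one. ATF3, a stress-induced repressor, had the largest interaction of them, 1.46 ± 0.13 (adjusted p = 2.9e-06). Its HFM arrays stood at 7.68, 7.38 and 7.26 at 12 hours and 8.73, 8.69 and 8.79 at 24 hours. GM stood at 6.76, 6.77 and 6.84 at 12 hours and 6.74, 6.61 and 6.55 at 24 hours, so HFM was above GM at both times without overlap. Its window lies at chr1:212565157-212565456 on the plus strand, with the motif in capitals from position -191; the gene is shown because it had the largest interaction of the matching members.
ATF3: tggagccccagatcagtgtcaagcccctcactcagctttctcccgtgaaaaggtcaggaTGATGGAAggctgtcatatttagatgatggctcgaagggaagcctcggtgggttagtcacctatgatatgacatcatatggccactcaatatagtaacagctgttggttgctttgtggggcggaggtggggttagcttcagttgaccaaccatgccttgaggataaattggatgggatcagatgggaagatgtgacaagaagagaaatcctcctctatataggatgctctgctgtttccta

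**Figure D2:**
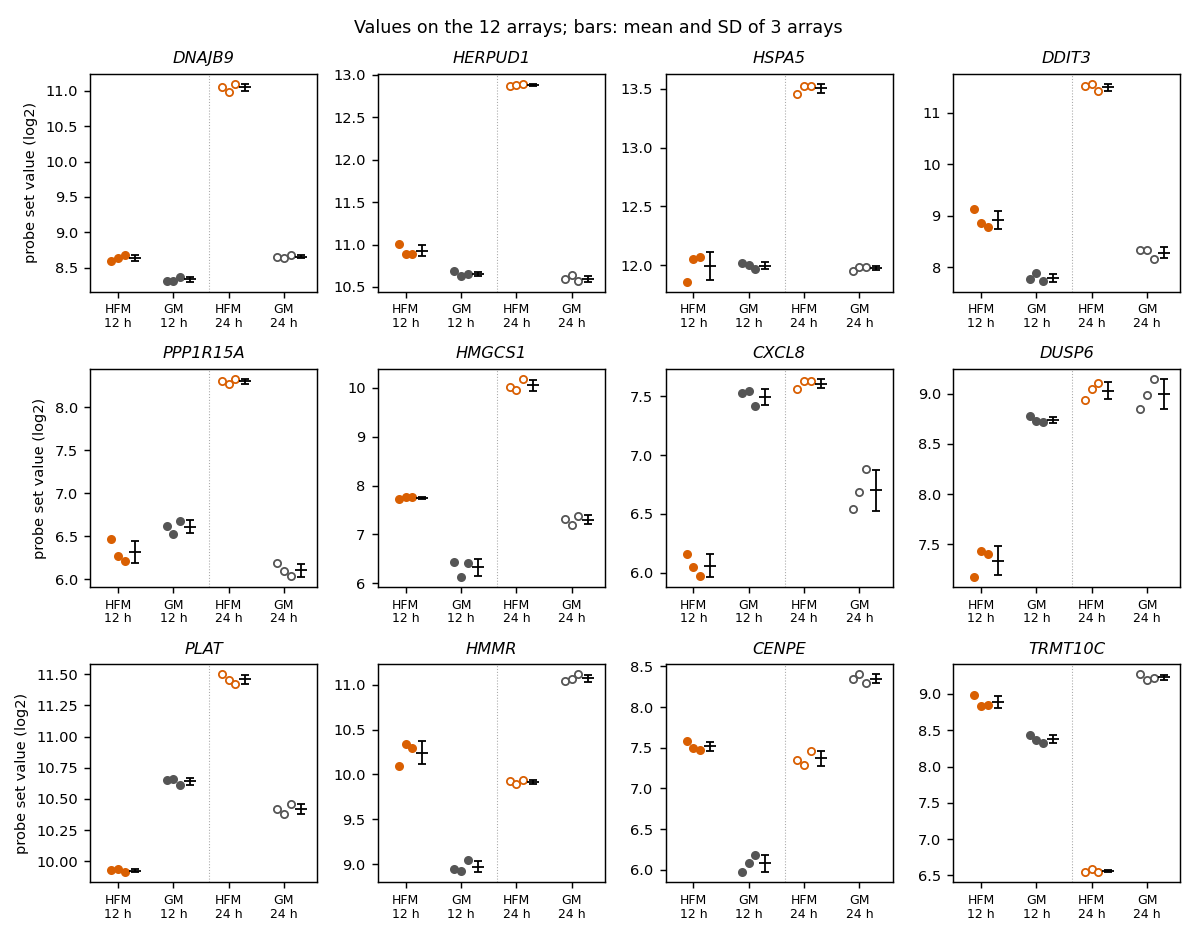
Log2 values on each of the 12 arrays for 12 named genes (y axis; each panel has its own range), by group on the x axis, with HFM in orange and GM in grey, filled at 12 hours and open at 24 hours; bars give the mean and SD of 3 arrays. The ER and stress genes peak in HFM at 24 hours, DUSP6 is low in HFM at 12 hours alone, CXCL8 and PLAT cross from below to above GM, and HMMR, CENPE and TRMT10C cross from above to below.

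Sterol genes took different paths. Of 19 members tested in the list of cholesterol synthesis and uptake, 6 had a higher interaction and 4 a lower one, with a median of 0.06, and with centred arrays 11 were higher and 3 lower. A term for the 4 arrays with the highest hybridisation controls, chosen after the data were seen, gave 6 higher and 8 lower. These arrays are HFM 12-hour replicate 1 and all 3 of GM at 12 hours, so the term cannot be told apart from the GM 12-hour group except through that replicate. HMGCS1, which makes the HMG-CoA used for mevalonate, had 7.73, 7.76 and 7.76 in HFM and 6.44, 6.13 and 6.41 in GM at 12 hours, and 10.02, 9.96 and 10.18 in HFM and 7.31, 7.20 and 7.38 in GM at 24 hours. It was higher in HFM at both times without overlap, and its effect grew by 1.33 ± 0.12 (adjusted p = 3.8e-06). INSIG1, which holds SREBP in the ER, grew from a medium effect of 1.60 at 12 hours to 2.63 at 24 hours, and SQLE, squalene epoxidase, had an interaction of 0.61, although its 3 other probe sets include 1 called lower. IDI1, isopentenyl diphosphate isomerase, went the other way. Its values were 9.86, 9.75 and 9.74 in HFM and 8.43, 8.51 and 8.38 in GM at 12 hours, and 10.19, 10.12 and 10.18 in HFM and 9.49, 9.47 and 9.44 in GM at 24 hours. HFM stayed above GM without overlap, but its effect shrank, by -0.65 ± 0.07 (adjusted p = 2.2e-05). The letters TCACNCCAC, a sterol regulatory element, were in 1.13% of all windows, in 1 of the 18 windows of the list and in 0 of the 8 of called members, which says only that these letters are not in those windows.

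Fatty acid genes had mixed interactions whose balance depends on scaling and, for synthesis, on the probe sets used. In the list of fatty acid synthesis and desaturation 1 of 17 members was higher and 7 lower, but 6 were higher and 3 lower with centred arrays. With the mean of probe sets 5 were higher and 2 lower. FASN, fatty acid synthase, had 8.39, 8.16 and 8.26 in HFM and 8.30, 8.21 and 8.23 in GM at 12 hours, and 7.04, 7.16 and 7.25 in HFM and 7.92, 7.74 and 7.75 in GM at 24 hours. The groups overlapped at 12 hours, and HFM was lower on all 3 arrays at 24 hours, with an interaction of -0.68 ± 0.11 (adjusted p = 2.5e-04); its other probe set was not called in that direction. SCD, the main stearoyl-CoA desaturase, was about as much higher in HFM at both times, by 0.98 and 1.04, and its interaction of 0.06 did not pass (adjusted p = 0.47), but it was 0.26 and passed with centred arrays. FADS3, of the fatty acid desaturase family, reversed from -0.34 to 0.73. For fatty acid oxidation 4 of 22 members were higher and 8 lower, near the shares over all genes tested (19.4% higher and 33.4% lower). With centred arrays 9 were higher and 2 lower, while over all 13130 genes 5068 were higher and 3134 lower. ACADM and CPT2, which act on medium-chain fatty acids and in the carnitine shuttle, had interactions of -0.86 and -0.82, and ACADVL, for very long chains, had 0.76. CPT1A, the entry step of the shuttle, had -0.03, which did not pass (adjusted p = 0.80) and whose sign changed with scaling.

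Genes of lipid storage and of nutrient-sensing factors included some of the growing effects. PLIN2, the lipid droplet coat protein, had 10.38, 10.22 and 10.17 in HFM and 10.03, 10.08 and 10.10 in GM at 12 hours, and 11.21, 11.15 and 11.20 in HFM and 9.92, 9.91 and 9.83 in GM at 24 hours. Groups did not overlap, and the interaction was 1.11 ± 0.09 (adjusted p = 8.3e-07), although its other probe set was not called higher. G0S2, an inhibitor of triglyceride lipase, had a medium effect of -0.98 at 12 hours, and its groups overlapped at 24 hours. FABP4, a fatty acid binding protein, turned from a medium effect of 0.26 to -0.68, and its other probe set was not called in that direction. Of the whole lipid droplet list 8 of 22 were higher and 5 lower, but 4 were higher and 5 lower without GM 12-hour replicate 3, without HFM 24-hour replicate 2 or without GM 24-hour replicate 2, and 12 were higher and 3 lower with centred arrays. Among PPAR targets 7 of 13 were higher and 2 lower, with a median of 0.51, and with centred arrays 10 were higher and 2 lower. Without cross-hybridising probe set types 3 of 9 were higher and 2 lower, with a median of 0.15. The PPAR targets include ANGPTL4, an inhibitor of lipoprotein lipase, which turned from -0.44 to 1.13, and PDK4, which restrains pyruvate oxidation, which grew from 0.48 to 1.60. TXNIP, an inhibitor of thioredoxin and glucose uptake, had 9.35, 9.14 and 9.13 in HFM and 8.09, 7.95 and 8.03 in GM at 12 hours, and 11.91, 11.94 and 11.91 in HFM and 8.83, 8.81 and 8.71 in GM at 24 hours. HFM was above GM throughout, and the interaction was 1.96 ± 0.10 (adjusted p = 3.4e-08).

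In the FOXO and insulin list, which also holds TXNIP and PDK4, 11 of 21 members were higher and 1 lower, with a median of 0.33. The list median lay 0.37 above that of all genes. With centred arrays 17 were higher and 1 lower. Centring cannot change the distance between these medians, so that distance is no check on scaling. The transcriptional repressor BCL6 grew from 0.96 to 2.30, and the growth arrest genes GADD45A and GADD45B had interactions of 1.14 and 1.41. Of the hypoxia and glycolysis list 19 of 33 were higher and 4 lower (24 and 1 with centred arrays), with a median of 0.31, and 24 of 33 were higher in HFM at 24 hours. SLC2A3, a glucose transporter, had 7.96, 8.03 and 8.08 in HFM and 6.90, 6.80 and 6.95 in GM at 12 hours, and 10.21, 10.29 and 10.28 in HFM and 7.11, 7.16 and 6.97 in GM at 24 hours. HFM was higher at both times, and the interaction was 2.04 ± 0.09 (adjusted p = 1.9e-08). PFKFB3, which makes the activator of phosphofructokinase, reversed, with 7.94, 8.21 and 8.24 in HFM under 8.84, 8.77 and 8.79 in GM at 12 hours, and 9.51, 9.59 and 9.62 in HFM above 8.46, 8.45 and 8.58 in GM at 24 hours. Its interaction was 1.74 ± 0.11 (adjusted p = 1.9e-07). ENO2, a glycolytic enolase, had 0.99 and NDRG1, a stress-responsive gene, 1.03. MIR210HG, the host gene of the hypoxia-induced miR-210, was not in the list and behaved differently. It had 7.05, 6.40 and 6.65 in HFM and 5.32, 5.26 and 5.28 in GM at 12 hours, and 5.02, 4.92 and 4.90 in HFM and 5.26, 5.05 and 5.19 in GM at 24 hours. Its higher level in HFM at 12 hours had ended by 24 hours, with an interaction of -1.63 ± 0.18 (adjusted p = 1.3e-05).

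Genes of the cell cycle and DNA replication moved most uniformly toward lower values. Of 51 members tested, 43 had a lower interaction, 0 a higher one in limma (0 also at an unadjusted p under 0.05), and 8 did not pass. The median was -0.67. At 12 hours 20 members were higher in HFM (28.9% of all genes were) and 13 lower (33%). At 24 hours 0 were higher (20.6% of all genes) and 48 lower (37.5%). The effect reversed from higher to lower for 18 members and was new and lower for 16. With centred arrays 38 were lower and 4 higher. The list median of the change with time was -0.68 in HFM and 0.07 in GM.

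HMMR, a spindle-associated protein, had 10.10, 10.34 and 10.30 in HFM and 8.94, 8.93 and 9.05 in GM at 12 hours. Its values at 24 hours were 9.92, 9.90 and 9.93 in HFM, against 11.04, 11.06 and 11.12 in GM. HFM lay above GM at 12 hours and below it at 24 hours, without overlap. Between the times HMMR changed by -0.33 in HFM and by 2.10 in GM, and the interaction was -2.43 ± 0.09 (adjusted p = 8.9e-09). CENPE, a kinetochore motor, had 7.58, 7.50 and 7.48 in HFM and 5.97, 6.08 and 6.18 in GM at 12 hours, and 7.35, 7.29 and 7.47 in HFM and 8.35, 8.40 and 8.30 in GM at 24 hours. It crossed in the same way, with a change of 2.27 in GM and one in HFM that did not pass (-0.15, adjusted p = 0.073), and its interaction was -2.42 ± 0.10. Of the 12 genes with the most negative interactions outside the list, KIF20B, ASPM and SGO2 also serve the spindle and chromosome segregation, and they reversed by -2.65, -2.55 and -2.55.

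Among replication genes, MCM10, which helps open the replication fork, had 8.85, 8.72 and 8.67 in HFM and 8.77, 8.71 and 8.77 in GM at 12 hours, where the groups overlapped. At 24 hours it averaged 7.04 ± 0.03 in HFM, against 8.84 ± 0.01 in GM (SD, n = 3 arrays each), without overlap. Its interaction was -1.79 ± 0.07 (adjusted p = 1.1e-08), and it changed by -1.71 in HFM, whereas the change of 0.09 in GM did not pass. POLE2, a subunit of DNA polymerase epsilon, reversed, with 9.95, 9.82 and 9.82 in HFM and 9.19, 9.13 and 9.12 in GM at 12 hours, and 8.59, 8.59 and 8.57 in HFM and 9.63, 9.61 and 9.66 in GM at 24 hours. The groups did not overlap, and its interaction was -1.76 ± 0.07 (adjusted p = 9.0e-09). CCND1, cyclin D1, was lower in HFM at both times, with effects of -0.53 at 12 and -0.97 at 24 hours, and its interaction was -0.45. The E2F letters TTTCGCGC or TTTGGCGC were in 1.15% of all windows, in 12 of the 42 windows of the list and in 9 of the 35 of called members. The called ones are CDK1, MCM3, MCM6, CDC25A, CDC6, GINS1, POLA1, POLE2 and E2F2. MCM2, MCM7 and E2F1, which did not pass, held the letters too. The window of POLE2, the one with the largest interaction, lies at chr14:49688165-49688464 on the minus strand, and the capitals mark TTTGGCGC read on the other strand, from position -5.
POLE2: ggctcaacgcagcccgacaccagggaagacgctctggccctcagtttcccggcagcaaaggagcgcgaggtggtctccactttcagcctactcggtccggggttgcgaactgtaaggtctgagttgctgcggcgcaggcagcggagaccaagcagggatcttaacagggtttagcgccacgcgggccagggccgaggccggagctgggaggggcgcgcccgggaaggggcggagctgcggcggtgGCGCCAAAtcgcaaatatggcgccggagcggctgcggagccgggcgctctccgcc

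Of 21 members of the NF-kappaB and cytokine list, 14 had a higher interaction and 3 a lower one, with a median of 0.62, and with centred arrays 15 were higher and 0 lower. The median medium effect was -0.57 at 12 hours and 0.10 at 24 hours. In HFM 14 members were lower at 12 hours and 5 at 24 hours, and the lower effect shrank for 2 members, ended for 4, turned round for 5 and grew for 2. CXCL8 (interleukin-8), a neutrophil chemokine, had 6.16, 6.05 and 5.97 in HFM and 7.53, 7.54 and 7.42 in GM at 12 hours. At 24 hours it had 7.56, 7.63 and 7.63 in HFM and 6.54, 6.68 and 6.88 in GM. HFM crossed from below to above GM, with no overlap, by an interaction of 2.34 ± 0.12 (adjusted p = 4.2e-08). The related chemokine CXCL2 reversed as well, with means of 7.04 ± 0.03 in HFM and 7.97 ± 0.03 in GM at 12 hours, and 7.70 ± 0.05 in HFM and 7.15 ± 0.03 in GM at 24 hours (SD, n = 3 arrays each). Its interaction was 1.49 ± 0.06 (adjusted p = 1.5e-08). PTX3, a secreted pattern recognition protein, had an effect of -1.26 at 12 hours, with 6.24, 6.63 and 6.60 in HFM and 7.80, 7.70 and 7.73 in GM, and its groups overlapped at 24 hours. CXCL1, a related chemokine, stayed lower, with effects of -1.42 and then -0.80. IL6, a cytokine often induced with CXCL8, was lower in HFM at both times. It had 7.29, 6.97 and 6.82 in HFM and 8.83, 8.93 and 8.87 in GM at 12 hours, and 6.33, 6.09 and 5.98 in HFM and 8.28, 8.15 and 8.25 in GM at 24 hours, and its interaction of -0.24 ± 0.16 did not pass (adjusted p = 0.22).

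The letters of an NF-kappaB site, as fixed for this search, were in 1.91% of all windows, in 10 of the 24 windows of the list and in 7 of the 15 of called members, which are CXCL1, CXCL2, CXCL3, TNFAIP3, NFKBIA, NFKBIZ and NFKB1. TNFAIP3 and NFKB1, a feedback inhibitor and a subunit of the pathway, had lower interactions of -0.37 and -0.46, and the others higher ones. IL6, which did not pass, also held the letters. The window of CXCL2 lies at chr4:74099146-74099445 on the minus strand, with the motif in capitals from position -78. It is shown because CXCL2 had the largest interaction of the matching members.
CXCL2: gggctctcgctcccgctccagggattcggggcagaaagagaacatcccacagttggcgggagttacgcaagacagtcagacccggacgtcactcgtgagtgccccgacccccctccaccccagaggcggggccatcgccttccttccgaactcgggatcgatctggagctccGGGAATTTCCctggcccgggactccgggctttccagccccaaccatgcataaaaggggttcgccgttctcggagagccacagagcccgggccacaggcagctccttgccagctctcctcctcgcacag

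Of 31 immediate early and ERK feedback genes, 18 had a higher interaction and 6 a lower one, with a median of 0.54, and with centred arrays 20 were higher and 2 lower. The size depends on the probe sets used. Without cross-hybridising types 10 of 22 were higher and 3 lower, with a median of 0.15. The median was 0.30 with the mean of probe sets, 0.37 without HFM 12-hour replicate 1 and 0.71 with a filter at log2 6. At 12 hours 25 were lower in HFM and 2 higher, and at 24 hours 16 were lower and 9 higher. DUSP6, the cytoplasmic phosphatase of ERK, had 7.17, 7.44 and 7.40 in HFM and 8.78, 8.73 and 8.72 in GM at 12 hours. At 24 hours its groups overlapped, with 8.94, 9.05 and 9.10 in HFM and 8.85, 8.99 and 9.15 in GM. HFM rose by 1.69 between the times and GM by 0.25, and the interaction was 1.44 ± 0.12 (adjusted p = 1.9e-06). SPRY2, another inhibitor of receptor signalling to ERK, ended likewise, with a medium effect of -1.18 at 12 hours and one of 0.06 at 24 hours that did not pass. DUSP5, a nuclear ERK phosphatase, reversed, with 7.96, 7.70 and 7.64 in HFM and 8.30, 8.23 and 8.22 in GM at 12 hours, and 9.80, 9.65 and 9.73 in HFM and 8.02, 7.96 and 7.90 in GM at 24 hours. Its interaction was 2.25 ± 0.11 (adjusted p = 4.1e-08). DUSP4, also a nuclear phosphatase of the family, shrank from -1.95 to -0.51, but it was read from a probe set of a cross-hybridising type, its 2 other probe sets include 1 called lower, and without such types the interaction was -0.26. IER2, an immediate early gene, shrank from -1.15 to -0.43. TFRC, the transferrin receptor, also shrank, with an interaction of 0.66. It belongs to the ubiquitous control list, in which 5 of 21 members tested were higher and 6 lower. The shares over all genes tested were 19.4% and 33.4%. With centred arrays 11 of the control genes were higher and 3 lower.

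Matrix and mesenchymal genes mostly had higher interactions, 24 of 38 with 4 lower, and the median was 0.50. PLAT, tissue plasminogen activator, had 9.93, 9.94 and 9.91 in HFM and 10.65, 10.66 and 10.61 in GM at 12 hours, and 11.50, 11.45 and 11.43 in HFM and 10.42, 10.38 and 10.46 in GM at 24 hours. HFM was below GM on every array at 12 hours and above it on every array at 24 hours, and the interaction was 1.75 ± 0.06 (adjusted p = 6.3e-09). MMP14, a membrane-bound matrix protease, had a new effect of 1.16 at 24 hours, and POSTN, periostin, grew from 0.50 to 1.73. COL8A1, a short-chain collagen, was the counterexample, since its effect of 1.14 at 12 hours had ended at 24 hours, with an interaction of -1.29. In the Hippo and YAP list 5 of 19 members were higher and 9 lower, beside 19.4% and 33.4% of all genes. With centred arrays 6 were higher and 7 lower. The median was -0.30, and it was -0.12 with the mean of probe sets. LATS2, the kinase that restrains YAP, grew from 1.06 to 2.82, with 8.25, 8.15 and 8.15 in HFM and 7.10, 7.10 and 7.19 in GM at 12 hours, and 10.16, 10.19 and 10.15 in HFM and 7.38, 7.38 and 7.27 in GM at 24 hours. The groups did not overlap, but its other probe set was not called in that direction. WWTR1 (TAZ), the adaptor SAV1 and the upstream regulator NF2 had interactions of -0.91, -0.85 and -0.79, and for SAV1 2 of 4 other probe sets were called in the opposite direction.

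**Figure D3:**
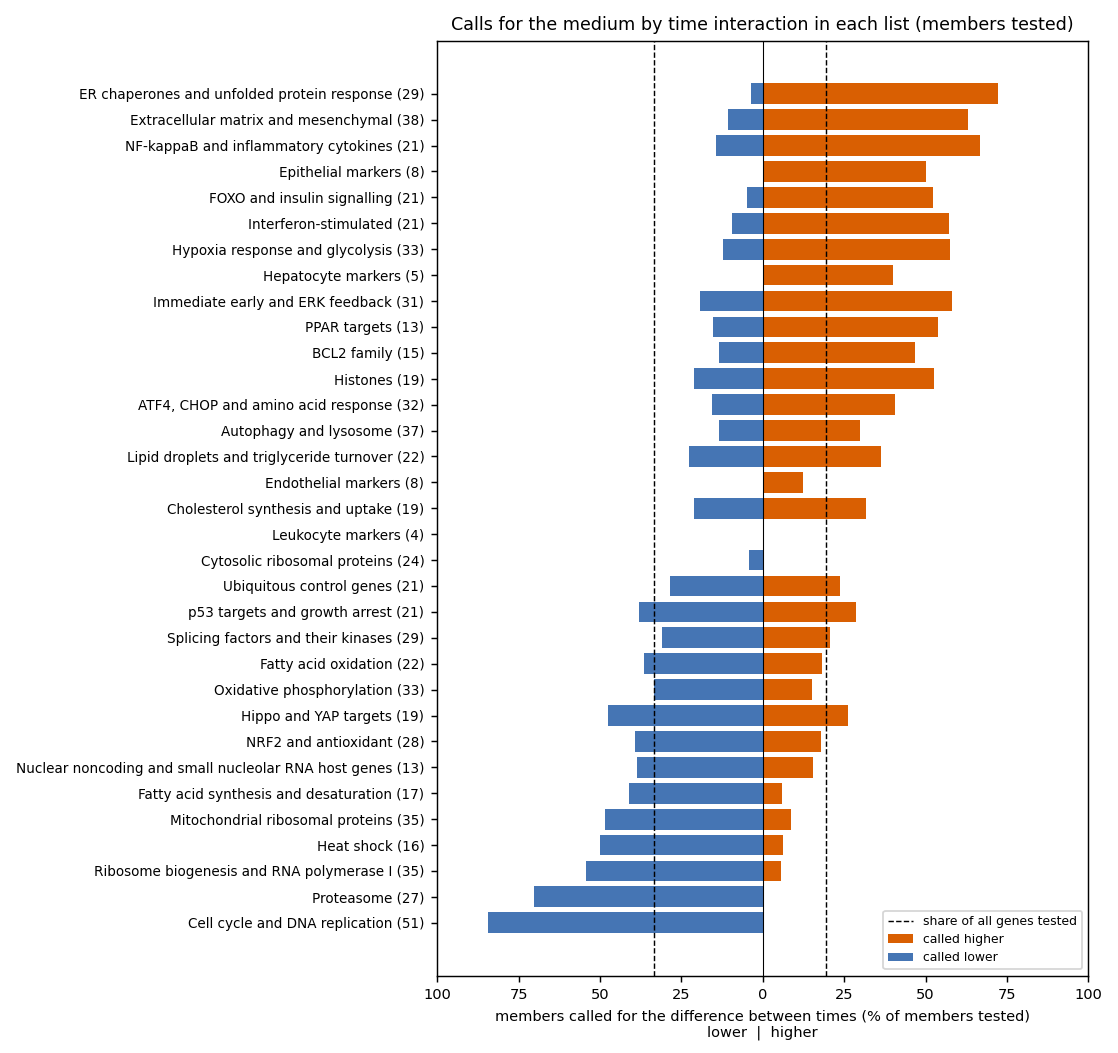
Share of the tested members of each of 33 gene lists called for the interaction (x axis, percent of members; higher to the right in orange, lower to the left in blue), with the number of members tested in brackets; dashed lines mark the shares over all genes tested, 19.4% higher and 33.4% lower. ER genes lead the higher calls and cell cycle genes the lower ones; for 9 lists, which are the cytosolic ribosomal, ubiquitous control, p53, splicing, fatty acid oxidation and synthesis, oxidative phosphorylation, NRF2 and nuclear noncoding lists, the larger side turned when arrays were centred.

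The proteasome, ribosome biogenesis and mitochondrial ribosomal lists had more lower than higher interactions, as had all genes tested (33.4% lower and 19.4% higher). In the cytosolic ribosomal list 1 member passed. In the proteasome list 19 of 27 members were lower and 0 higher in limma (0 higher also at an unadjusted p under 0.05), with a median of -0.39, and with centred arrays 15 were lower and 0 higher. At 12 hours 10 members were higher in HFM (28.9% of all genes were) and 8 lower (33%). At 24 hours 27 of the 27 tested were lower (37.5% of all genes). PSMD12, a subunit of the regulatory particle, had 10.91, 10.84 and 10.84 in HFM and 10.62, 10.62 and 10.62 in GM at 12 hours, and 10.20, 10.17 and 10.12 in HFM and 11.04, 11.04 and 11.04 in GM at 24 hours. HFM crossed from above to below GM without overlap, by -1.12 ± 0.06 (adjusted p = 8.6e-08). PSMA5 and PSMA4, subunits of the outer ring, had -0.87 and -0.84. PSMA3 had -0.95, but its 2 other probe sets were called in the opposite direction. Of 35 ribosome biogenesis and RNA polymerase I genes, 19 were lower and 2 higher, with a median of -0.37, and 8 were higher with centred arrays or without HFM 12-hour replicate 1. TAF1B, of the selectivity factor for RNA polymerase I, reversed from 0.36 to -1.25. TAF1D, of the same factor and also a host of small nucleolar RNAs, ran against it and grew from 1.27 to 3.02. It had 7.99, 8.09 and 8.12 in HFM and 6.74, 6.86 and 6.81 in GM at 12 hours, and 11.13, 11.25 and 11.21 in HFM and 8.08, 8.23 and 8.22 in GM at 24 hours, without overlap. Of 35 mitochondrial ribosomal proteins 17 were lower and 3 higher, led by MRPS31 with -1.05, and with centred arrays 14 were lower and 9 higher. Of 24 cytosolic ribosomal proteins 1 was lower and 0 higher in limma (1 higher at an unadjusted p under 0.05). With centred arrays 17 were higher and 0 lower, and with the mean of probe sets 8 were higher and 1 lower.

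The largest single interactions belonged to other genes. TRMT10C, a tRNA methyltransferase subunit of mitochondrial RNase P, had 8.98, 8.84 and 8.85 in HFM and 8.44, 8.37 and 8.32 in GM at 12 hours. After 24 hours it stood at 6.55, 6.58 and 6.55 in HFM, against 9.27, 9.20 and 9.22 in GM. HFM was the higher at 12 hours and far the lower at 24 hours, with no overlap and an interaction of -3.18 ± 0.08 (adjusted p = 9.7e-10). EIF5, a translation initiation factor, had 10.68, 10.46 and 10.38 in HFM and 10.39, 10.37 and 10.37 in GM at 12 hours, and averaged 7.96 ± 0.08 in HFM and 10.83 ± 0.06 in GM at 24 hours (SD, n = 3 arrays each). Its groups overlapped at 12 hours, the effect was new, and the interaction was -2.99 ± 0.10 (adjusted p = 4.8e-09), with all 4 other probe sets called lower too. HYLS1, a centriole protein, was new and lower by -3.05, and LCMT2, a tRNA-modifying enzyme, grew from -0.92 to -3.67. LCMT2 had 7.44, 7.31 and 7.28 in HFM and 8.25, 8.23 and 8.30 in GM at 12 hours, and 4.60, 3.88 and 3.78 in HFM and 7.76, 7.82 and 7.69 in GM at 24 hours, where HFM lay near or under the level at which a gene was tested. NCOA5, a nuclear receptor coactivator, had an interaction of -2.53, and its other probe set was not called lower. ZNF804A, a zinc finger gene, had the most negative value, -3.42, but its HFM arrays at 24 hours (3.15, 3.04 and 3.45) lay under the level at which a gene was tested.

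Among the highest interactions were histone genes and noncoding genes. H2BC21, a histone H2B gene, had 5.62, 5.16 and 5.22 in HFM and 4.45, 4.30 and 4.51 in GM at 12 hours, and 8.58, 8.55 and 8.56 in HFM and 5.13, 5.18 and 4.98 in GM at 24 hours. HFM was above GM at both times, and the interaction was 2.55 ± 0.15 (adjusted p = 1.3e-07). Of the histone list 10 of 19 members were higher and 4 lower (14 and 2 with centred arrays), with H2AC8 at 2.37 and H2BC5 at 2.32; the other probe set of H2BC5 was not called higher, and near-identical histone copies make single members uncertain. The noncoding genes SNORA72 and LINC-PINT grew from 0.92 to 3.60 and from 0.68 to 3.28. The pseudogene RPS16P5 grew from 0.66 to 3.33, and its signal cannot be told apart here from that of near-identical copies.

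Effects that shrank or ended include genes with large effects at 12 hours. MIR100HG, the host gene of a microRNA cluster, had 8.64, 8.63 and 8.58 in HFM and 6.68, 6.54 and 6.62 in GM at 12 hours, and 9.04, 9.12 and 9.16 in HFM and 8.21, 8.28 and 8.20 in GM at 24 hours. HFM stayed above GM, but GM rose by 1.62 between the times and HFM by 0.49, so the effect shrank by -1.13 ± 0.08 (adjusted p = 3.5e-07). The effect of CDK15, a cyclin-dependent kinase, shrank from 1.63 at 12 hours to 0.26 at 24 hours, and its other probe set was not called in that direction. CCDC88A (girdin), an actin-binding signalling protein, had 7.74, 7.62 and 7.66 in HFM and 6.32, 6.15 and 6.25 in GM at 12 hours, and 7.72, 7.78 and 7.86 in HFM and 7.91, 7.89 and 7.95 in GM at 24 hours. GM rose by 1.68 and the change of 0.12 in HFM did not pass, so the effect ended, with an interaction of -1.56 ± 0.08 (adjusted p = 6.4e-08). IFT74, of intraflagellar transport, ended in the same way, with -1.50. For comparison, CLK1, a splicing factor kinase named after its values were seen, was as much higher in HFM at both times (1.98 and 1.93).

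A stricter view of reversal took genes with at least 1.5-fold effects at both times, a limit chosen after the data were seen. It left 97 genes that turned from higher to lower in HFM and 10 that turned from lower to higher. With centred arrays these were 53 and 16, and without HFM 12-hour replicate 1 they were 93 and 10. The 10 genes are CXCL8, PLAT, PFKFB3, ITPRIP, IRAK2, MAFF, RHOB, SLC35E4, JUNB and RAC3. IRAK2, an adaptor of interleukin-1 signalling, had 7.52, 7.45 and 7.40 in HFM and 8.40, 8.31 and 8.36 in GM at 12 hours, and 8.54, 8.45 and 8.46 in HFM and 7.80, 7.82 and 7.80 in GM at 24 hours. MAFF, a small Maf factor, turned from -0.77 to 0.77. The genes that turned from higher to lower include POLE2, SMC4, NDC80, KNL1 and KIF14, which serve replication or chromosome segregation, beside KIF20B, ASPM, SGO2, HMMR and CENPE above. They also include zinc finger genes such as ZNF92 and ZNF302, and genes of other kinds such as PLCB1, ARID5B and NBEA. The share of cell cycle genes among them was not counted.

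Stress lists other than those of the ER were mixed. Over all genes tested 19.4% were higher and 33.4% lower as deposited, and 5068 and 3134 of 13130 genes with centred arrays. For p53 targets 6 of 21 were higher and 8 lower, but 11 were higher and 5 lower with centred arrays. These counts were 8 and 6 with the mean of probe sets, and 9 and 8 without HFM 12-hour replicate 1. PLK3, a stress-responsive kinase, reversed from -0.52 to 0.89 while its other probe set was not called higher, and TIGAR, which lowers glycolytic flux, had -1.03. In the NRF2 and antioxidant list 5 of 28 were higher and 11 lower, near the shares over all genes, but 10 were higher and 7 lower with centred arrays. HMOX1, haem oxygenase, had 0.92, and PRDX3 and GCLM, of mitochondrial peroxide removal and glutathione synthesis, both had -0.84. Of 16 heat shock genes 8 were lower and 1 higher (7 and 4 with centred arrays, 12 and 3 without HFM 12-hour replicate 1), with a median of -0.30, and DNAJA1, a cytosolic co-chaperone, turned from 0.16 to -1.37. Of 15 BCL2 family members 7 were higher and 2 lower (12 and 0 with centred arrays), led by the pro-apoptotic BCL2L11 with 1.06, which did not pass without cross-hybridising probe set types (-0.06). Of 37 autophagy and lysosome genes 11 were higher and 5 lower, 20 were higher and 4 lower with centred arrays, 17 were higher and 8 lower without HFM 12-hour replicate 1, and 8 were higher and 11 lower with the term for 4 arrays given above. ATG5, needed to extend the autophagosome membrane, turned from 0.24 to -0.93, while RRAGD, TFE3 and CTSD, of lysosomal signalling and digestion, had 0.72, 0.69 and 0.60. Of 21 interferon-stimulated genes 12 were higher and 2 lower, with TAP1, a peptide transporter, at 0.91 and IFIT1 at -0.76.

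**Figure D4:**
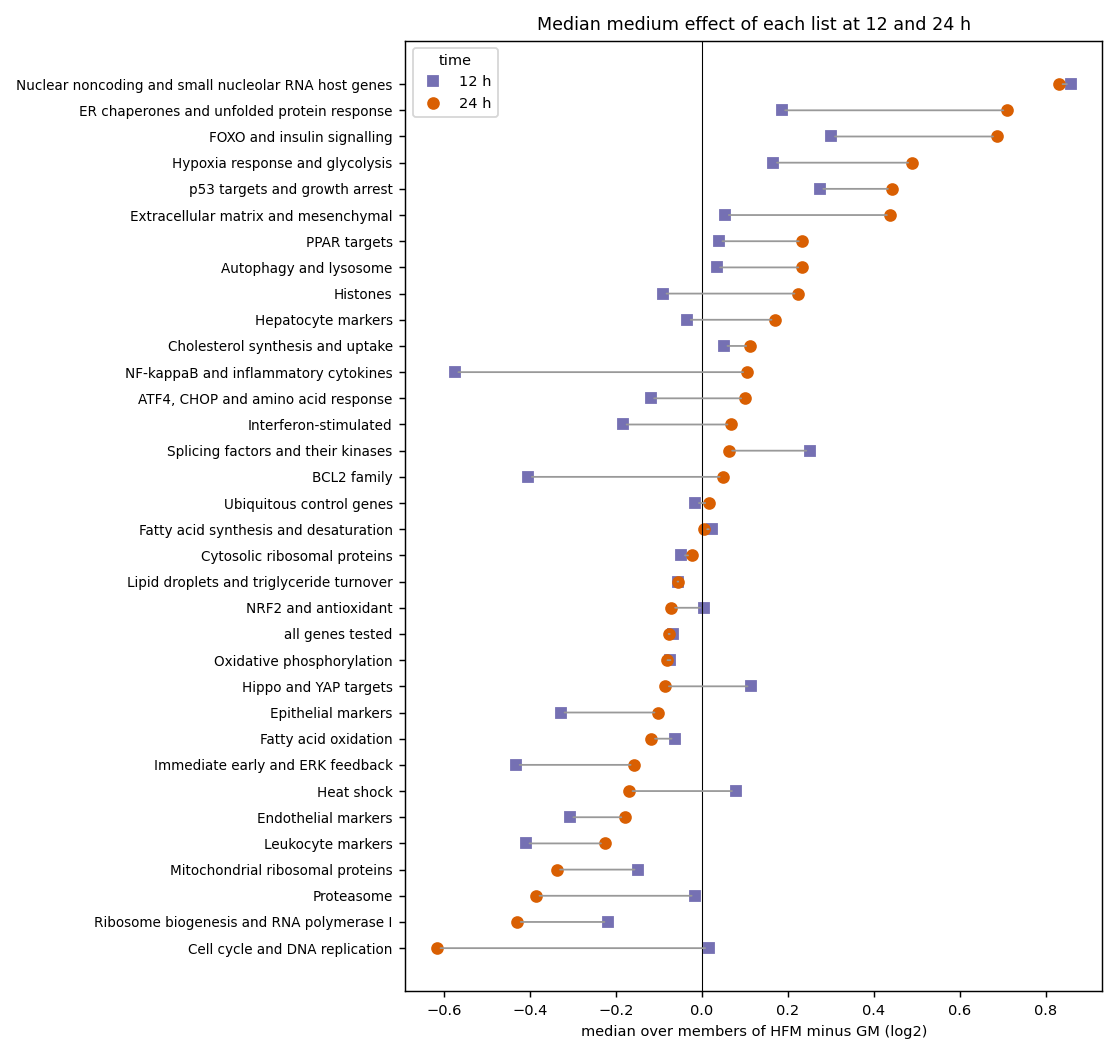
Median over the tested members of HFM minus GM (x axis, log2) for each list and for all genes tested, at 12 hours (squares) and 24 hours (circles), with a line joining the times. The median of the ER list was 0.19 at 12 hours and 0.71 at 24 hours, that of the NF-kappaB list -0.57 and 0.10, and that of the cell cycle list 0.02 and -0.62, beside -0.07 and -0.08 for all genes.

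Lists of cell markers differed between the groups in level. The mean over the 16 endothelial markers was 3.94 to 3.95 in HFM and 4.27 to 4.31 in GM at 12 hours, and 3.86 to 3.97 in HFM and 4.01 to 4.03 in GM at 24 hours, and 1 of 8 tested members, ICAM2, had a higher interaction (0.49), against 5 with centred arrays. The mean over 12 epithelial markers was 6.83 to 6.87 in HFM and 7.19 to 7.20 in GM at 12 hours, and 6.73 to 6.80 in HFM and 6.85 to 6.88 in GM at 24 hours. Of these, KRT7, KRT19, CLDN7 and ELF3 were higher for the interaction, 4 of 8 tested. For hepatocyte markers 2 of 5 tested were higher, TTR and SERPINA1, and for leukocyte markers 0 of 4 passed in limma, where 2 were higher at an unadjusted p under 0.05 and 2 passed with centred arrays. Their part in the other results was not tested.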

How the data were processed

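Sk-hep1 cells in HFM or GM were measured at 12 and 24 hours on 12 Affymetrix arrays. The authors deposited 1 table of log2 values per probe set, made with GCRMA per the submitters' processing notes, with no version given in the sources used here. GCRMA equalises the arrays' distributions, so a shift of most genes could be hidden or moved to others. Of 54675 probe sets, 41097 had 1 gene symbol in GEO's platform annotation, 1801 several and 11777 none, and those without a single symbol were left out. Symbols were looked up by Entrez ID for 41043 of them and 0 changed. Each gene took the probe set with the highest mean over 12 arrays, without regard to group.

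From these values, a 4-group model with empirical Bayes variances was fitted in limma 3.58.1 (R 4.3.3), with two-sided tests and Benjamini-Hochberg adjustment over the 13130 tested genes, and a threshold of 0.05. Errors are the model's standard errors. The test was checked on simulated data with independent normal noise for each gene. That check cannot show what array-wide shifts or an outlying array do to the calls. The members, 33 gene lists and motifs were chosen with earlier results of these data known. The genes named were the 12 largest called interactions of each sign and the 4 largest of each class (highest group mean at least log2 6, no other probe set called with the opposite sign), up to 4 called members of each list, markers at background, and CPT1A, PLIN2, FASN, SCD, HMGCS1, IL6, CXCL8, DDIT3, ASNS, TXNIP, PDK4, HMOX1 and CCND1. Members that held a motif and ATF6, CLK1, IRAK2, MAFF and the other genes that reversed by 1.5-fold were named outside this rule. A further fixed name is not analysed here. Alternatives changed the filter, probe set choice, scaling, variance estimate, block, control terms and arrays used. Promoter windows were RefSeq's. Figures used Python 3.11.15 and matplotlib 3.10.9. The labels do not say whether replicate numbers pair the samples, and the main model did not pair them. Deviations of same-numbered arrays correlated between -0.17 and 0.42 across genes, with both signs. With 3 arrays per group these correlations cannot settle whether the arrays were paired.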

Additional observations from a re-analysis of the deposited data

Results flagged for a closer look

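The difference between the medium effects at 24 and 12 hours was itself tested, and it was called for 6931 genes. Of these, HFM turned from higher to lower for 1207 and from lower to higher for 378, with both effects past the test.

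The reversed genes with the largest interactions were these. ZNF804A had an interaction of -3.42, with a 12-hour effect of 0.31 whose arrays overlapped. TRMT10C had -3.18. FILIP1L, a filamin A interacting protein, had -2.94, with means of 6.79 ± 0.11 in HFM and 5.96 ± 0.05 in GM at 12 hours, and 5.01 ± 0.22 in HFM and 7.13 ± 0.11 in GM at 24 hours (SD, n = 3 arrays each). ZNF107, a zinc finger gene, had -2.89 on a probe set of a cross-hybridising type, and 0.02 without such types. FOLR1, a folate receptor, had 2.68, with 6.61, 6.88 and 6.90 in HFM and 7.26, 7.33 and 7.38 in GM at 12 hours, and 8.26, 8.50 and 8.67 in HFM and 6.01, 6.13 and 6.83 in GM at 24 hours. PPP1R15A had 2.50, and CXCL8 had 2.34. RGS3, a regulator of G protein signalling, had 2.37, with effects of -0.33 and 2.04, and its other probe set was not called higher.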

How the results depend on the processing

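With centred arrays 5068 interactions were higher (312 at 2-fold or more) and 544 were lower at 2-fold or more. New effects were then 1295 higher and 737 lower, growing higher effects 639, shrinking lower effects 265, reversals 769 from higher to lower and 1186 from lower to higher, and 257 passed at neither time. Repeated quantile normalisation gave 3485 higher and 3869 lower calls, 331 shrinking lower effects and 670 reversals from lower to higher. CPT1A, at -0.03, was 0.17 (adjusted p = 0.042 in limma) when centred, 0.011 after quantile normalisation and 0.051 with the mean of probe sets. With no filter 79 effects shrank lower and 239 passed at neither time. With a filter at log2 6, 520 lower effects ended and 54 passed at neither time. The mean of probe sets left 559 lower interactions of 2-fold or more and gave SCD5 0.16, PSMA3 0.63 and SRSF5 0.43. Without cross-hybridising types 80 effects shrank lower and 238 turned from lower to higher, and ZNF107 had 0.022, STC2 -0.17, DUSP4 -0.26, BCL2L11 -0.063 and VPS29 0.12. The planned hybridisation control term separates GM 24-hour replicate 2 from the rest and left 69 shrinking lower effects. It gives the same interactions and calls as leaving that array out, so it is not a separate check. A term for 4 arrays, added after the data were seen, joins HFM 12-hour replicate 1 with all 3 GM 12-hour arrays, so it cannot be told apart from the GM 12-hour group except through that replicate, and gave 592 shrinking higher effects. Leaving out 1 array at a time gave 6204 to 8159 calls, 2185 to 3413 higher and 4019 to 4746 lower. Shrinking lower effects ranged from 69 (without GM 24-hour replicate 2) to 502, and reversals from lower to higher from 303 to 699, both highest without HFM 12-hour replicate 1. Shrinking lower effects were 79 without HFM 24-hour replicate 2, and 77 without HFM 24-hour replicate 3 or GM 24-hour replicate 1. CPT1A ranged from -0.090 to 0.047. The cause of these moves was not tested. With the replicate number as a block, 7073 interactions were called (2618 higher and 4455 lower) and 157 of 159 named genes kept their call. Over all alternatives, 3343 of 3449 values of named genes kept direction and side of the threshold, 89 no longer passed and 12 changed sign. Of 1452 list counts, 1273 stayed within 1.5 times. Both totals count the fit without GM 24-hour replicate 2 again as the planned control term. Genes near log2 4 have the least signal over background.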

Other observations

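Families of genes defined by their symbols, chosen after the values were seen, stood beside the 19.4% higher and 33.4% lower calls over all genes. Of 354 ZNF genes tested, most of which encode zinc finger proteins, 203 had a lower interaction (57.3%) and 24 a higher one (6.78%), and 81 were lower by 2-fold or more. Their median medium effect was 0.12 at 12 hours and -0.32 at 24 hours. With centred arrays 169 were lower and 61 higher. Of 20 CENP genes, which encode centromere proteins, 13 were lower and 0 higher in limma, and with centred arrays 13 were lower and 2 higher. Among 35 KIF genes, the kinesin motors, 18 were lower and 2 higher, against 17 lower and 7 higher with centred arrays. Of 17 IFT genes, for intraflagellar transport, 10 were lower and 2 higher, against 5 lower and 4 higher with centred arrays. Of 15 TRMT genes, for tRNA methylation, 8 were lower and 0 higher, against 6 lower and 3 higher with centred arrays.

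Of 6 SNHG genes, which host small nucleolar RNAs, 5 were higher and 0 lower. The list of nuclear noncoding and small nucleolar RNA host genes differed, with 2 of 13 higher and 5 lower. With centred arrays 5 members of that list were higher and 3 lower. Long intergenic genes with LINC symbols depended on scaling, with 35 of 178 higher and 34 lower as deposited, and 76 higher and 27 lower with centred arrays.

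Calls also varied with signal level. Among 3811 genes with a mean of log2 4 to 6, 827 were higher and 682 lower, and among 3427 genes at log2 8 to 10, 608 were higher and 1524 lower.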
